A study of Drosophila melanogaster with 6 samples.

Results

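The autophagy and lysosome genes of the adult female abdominal fat body were followed in libraries labelled *svp* RNAi and in control libraries. The members were the protein-coding genes whose name begins with Atg and a number, together with 23 named lysosome genes. These were 42 of the 17558 genes listed, 20 named Atg and 22 others, since the name *Vps34* was not found in the files. *svp* encodes an orphan nuclear receptor of the COUP-TF family. The libraries labelled *svp* RNAi (3 libraries) came from females of genotype *y w; PromE800-Gal4 tubGal80ts; 3.1Lsp2-Gal4/UAS-hairpin* with the *UAS-svp GD1546* hairpin, and the control libraries (3 libraries) from females with the same drivers and the *UAS-Luc JF01355* hairpin against firefly luciferase, although the labels give the control genotype as wild type. *PromE800-Gal4* acts in oenocytes, *3.1Lsp2-Gal4* in adipocytes, and the temperature-sensitive Gal80 holds both off until the flies are warmed. All females had been raised at 18° and were 0 to 2 days old at the start. They were kept with males at 18° for 3 days and then held at 29° for 5 days to induce RNAi, on medium with yeast paste. Each library pooled cells shaken off with trypsin and collagenase from the abdominal carcasses of 100 females, and the study's methods name 3 independent experiments.

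Autophagy is the route by which a cell encloses part of its own cytoplasm in a membrane, the autophagosome, and delivers it to the lysosome for breakdown. A kinase complex around Atg1 starts the process, a lipid kinase complex marks the membrane, Atg9 and Atg2 supply lipid, and a pair of ubiquitin-like conjugation systems attach Atg8a to it. The lysosome then fuses with the autophagosome, and its acid-activated cathepsins and glycosidases digest the content, with the acid made by the vacuolar proton pump (V-ATPase). In Drosophila the fat body, which stores fat and glycogen, is a tissue in which autophagy on starvation has been studied in detail.

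Library totals were between 15648948 and 19476599 fragments, of which the members took between 0.783% and 0.875%. The *svp* transcript itself was not lower under the *svp* RNAi label, whereas the study's own RT-qPCR reported a significant decrease. In FPKM it was higher in every library under the label, at 21.69, 22.14 and 24.25, against 11.42, 18.49 and 18.58 in controls. On the CPM scale explained below, the groups overlapped for this transcript. It was counted 1480, 1214 and 1421 times under the *svp* RNAi label, against 678, 1141 and 1168 times in control libraries (edgeR log2 fold change 0.35, SE 0.39, adjusted p = 1.00), so the direction of every difference below is that of the label. All 10 fat body markers were detected, with a summed FPKM of 88871 to 98482 in the libraries labelled *svp* RNAi and 47886 to 80558 in control libraries. Most of that sum came from the yolk protein genes *Yp1*, *Yp2* and *Yp3*. Of the 10 log2 fold changes 6 were below 0, and *Lsp2*, a storage protein gene, was called lower (13.4, 12.8 and 8.003 FPKM under the label and 193, 192 and 195 FPKM in controls, log2 fold change -4.16, SE 0.36, adjusted p = 0.018). Markers of other tissues differed between libraries. The summed FPKM of 20 midgut digestive enzyme genes was 602, 541 and 1495 in the libraries labelled *svp* RNAi and 3801, 232 and 282 in controls, so that control replicate 1 stood apart. That of 13 muscle markers, with only *fln* at 0, was 250, 299 and 265 under the label and 174, 684 and 246 in controls, with control replicate 2 highest. That of 16 ovary markers was 5062, 1789 and 1331 under the label and 3072, 1310 and 447 in controls, with *svp* replicate 1 highest. In RNA from mixed cells, fewer cells of a kind cannot be told apart from less RNA per cell. In all that follows, values for replicates 1, 2 and 3 are given in that order. Levels between genes are compared in FPKM (fragments per kilobase of gene, scaled to library size). Differences between groups are given in CPM (counts scaled to library size after edgeR's TMM correction, which allows for a few very abundant genes taking up reads) and as log2 fold changes of the *svp* RNAi label over control.

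The members differed widely in level, as shown in the plot of FPKM in every library. The cathepsin genes headed the list, with a mean of 968 FPKM over the 6 libraries for *Cp1*, 459 FPKM for *CtsB1* and 419 FPKM for *cathD*. *Atg8a*, which encodes the protein anchored in the autophagosome membrane, stood beside them at 442 FPKM. The proton pump subunit gene *Vha16-1* (315 FPKM), the cysteine protease gene *26-29-p* (283 FPKM) and *Lamp1* (260 FPKM), which encodes a lysosomal membrane glycoprotein, followed. The deposited FPKM were 1.49 times those from the listed gene length for *Atg8a* and 1.38 times for *Cp1*. For *CtsB1* and *cathD* they were 1.06 times and 1 times, so the place of *Atg8a* in this order depends on the length used. The other Atg genes were much lower, between 8.62 FPKM for *Atg7* and 46.1 FPKM for *Atg3*, apart from *Atg10* (0.738 FPKM) and *Atg8b*. *Atg8b*, the paralog of *Atg8a*, had 4 counts in *svp* replicate 1 and 0 counts in the other 5 libraries, and was the only member left out by edgeR's filter on low counts. A count of 0 allows up to 3 counts, a limit that covers counting error only.

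**Figure D1:**
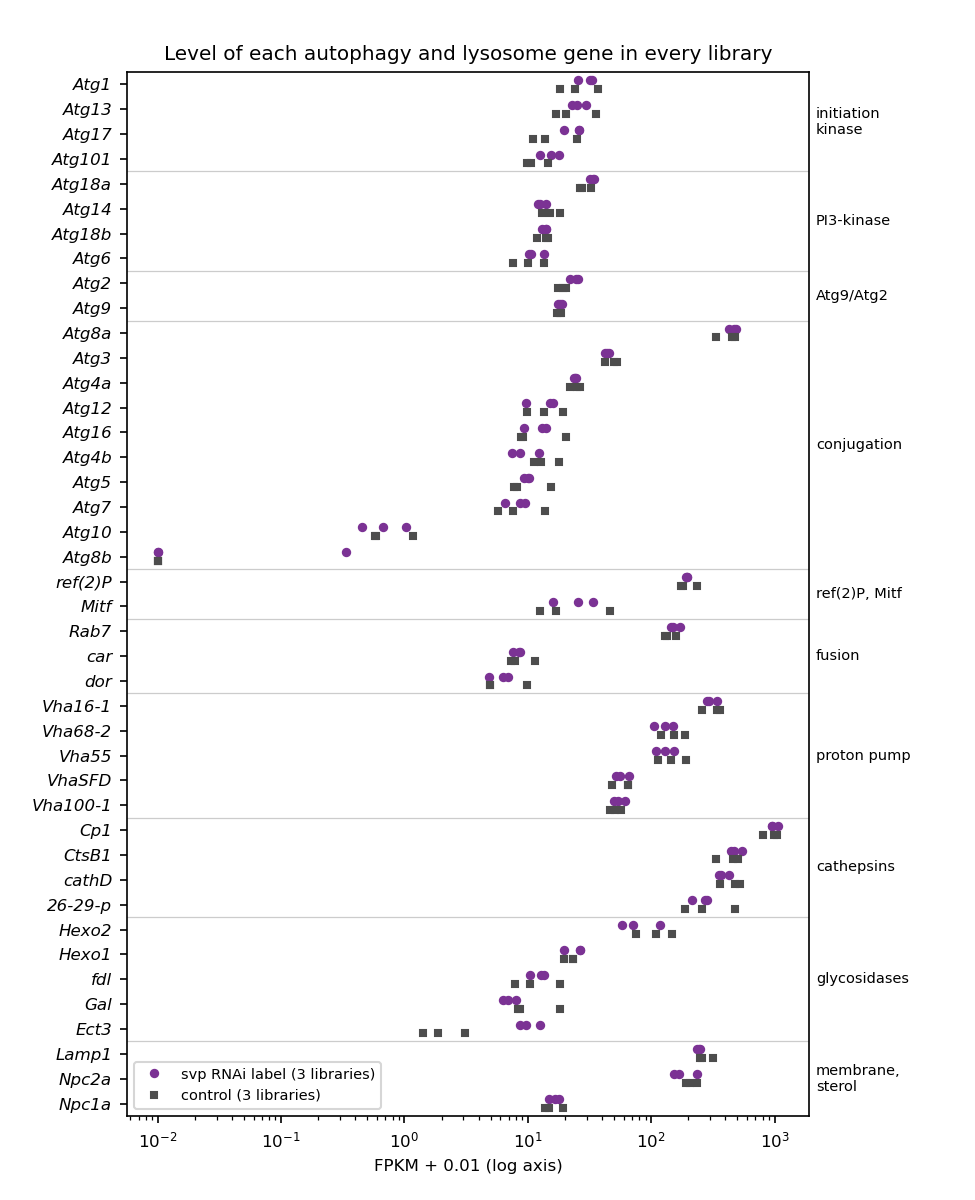
FPKM plus 0.01 (log axis) of each of the 42 members in the 3 libraries labelled *svp* RNAi (purple circles) and the 3 control libraries (grey squares), ordered by role and level. *Cp1* was highest at a mean of 968 FPKM, and *Ect3* is the member whose groups lie farthest apart.

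Of the 41 members tested, 1 passed the threshold of 0.05 on the adjusted p in edgeR's quasi-likelihood test, and it was higher under the *svp* RNAi label. This was *Ect3*, 1 of a pair of beta-galactosidase genes. Over all 9277 genes tested, 9 genes passed (0.097%), of which 2 were higher (0.0216%). An unadjusted p under 0.05 was found for 3 members (7.32%), against 463 of all genes (4.99%), and these were *Ect3*, *Atg17* and *Atg4b*. In 6 members (14.6%) the CPM of the groups did not overlap, against 865 of all genes (9.32%), with *Ect3*, *Atg17* and *Atg101* higher and *Atg4b*, *Vha55* and *Vha68-2* lower. This count depended on the scale: it was 4 with upper quartile scaling (3 higher and 1 lower), against 9.08% of all genes, and 4 in FPKM (2 higher and 2 lower), against 12.1% of all genes, and of these FPKM members (*Ect3*, *Atg2*, *Gal* and *Lamp1*) *Ect3* alone was among the 6. The median log2 fold change of the members was -0.07, with 15 above 0 and 26 below 0, against a median of -0.06 over all genes, of which 40.9% were above 0. With DESeq2, which called 153 of 10543 genes (1.45%), *Ect3* was again the 1 member called. The standard errors of the members' log2 fold changes were between 0.18 and 0.61, with a median of 0.25. With 3 libraries in each group, differences well above this size did not pass the threshold, as for *Atg17* at 0.54 and *Atg4b* at -0.59 (both SE 0.20). A member that was not called was therefore not shown to be unchanged.

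**Figure D2:**
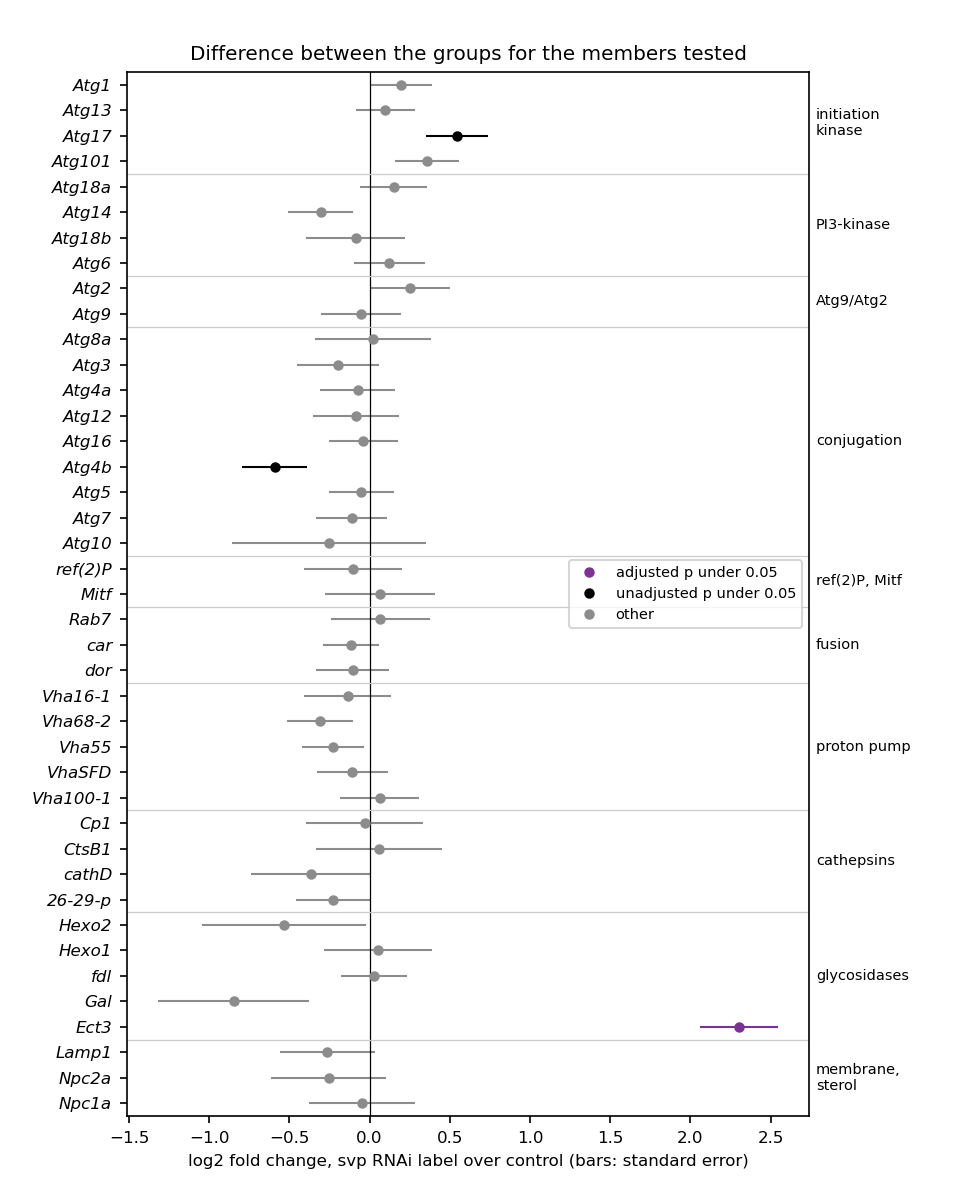
Log2 fold change of the *svp* RNAi label over control for the 41 members tested, grouped by role, with bars for the standard error. *Ect3* at 2.30 stands alone on the right, and the other 40 members lie between -0.85 and 0.54.

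*Ect3* (FBgn0260746, chromosome arm 3R, 11999278 to 12003516, plus strand, BDGP6) had 12.6, 9.60 and 8.67 FPKM in the libraries labelled *svp* RNAi, against 3.06, 1.85 and 1.40 FPKM in control libraries. On the CPM scale these were 24.8, 24.1 and 18.8 CPM under the *svp* RNAi label and 4.94, 4.96 and 3.79 CPM in controls. The lowest library labelled *svp* RNAi was far above the highest control on both scales, and the groups did not overlap. The log2 fold change was 2.30 (SE 0.24, adjusted p = 0.0454 with edgeR, adjusted p = 8.84e-11 with DESeq2). Its p ranked 7 of all genes tested and lay close to the threshold: with 1 library left out, the log2 fold change lay between 2.19 and 2.43, and the adjusted p was 0.0215 without control replicate 1 but between 0.155 and 0.280 without any of the other 5 libraries. In limma on log2 FPKM the adjusted p was 0.0975 with a pseudocount of 1 and 0.101 with a pseudocount of 0.1. Leaving out control replicate 1 and *svp* replicate 3, which held the most midgut marker RNA, gave a log2 fold change of 2.51 and an adjusted p of 0.0515. *Ect3* lies in the span of *Tk* on the opposite strand, but no exons overlap. It also lies on the same chromosome arm as *svp*, 255221 bp away with 38 genes between. Of these, 10 were tested, 0 were called by edgeR and 1 had an unadjusted p under 0.05, against 4.99% of all genes.

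Most markers of the Malpighian tubule, the excretory organ, had differences in the same direction as *Ect3*. Of 10 such markers, 8 had log2 fold changes above 0, against 40.9% of all genes, with a median of 0.94. The other 2 were *Irk2* at -0.58 and *Nhe1* at -0.29. An unadjusted p under 0.05 was found for 4, all higher under the *svp* RNAi label, against 4.99% of all genes. edgeR called 0 of the 10 and DESeq2 called 2, against 1.45% of all genes with DESeq2. The summed FPKM of the 10 markers was 120, 60.3 and 50.0 in the libraries labelled *svp* RNAi, against 71.3, 45.4 and 37.4 in control libraries, and these ranges overlapped. The CPM of 3 of the 10 did not overlap between the groups, all higher, against 4.51% of all genes higher without overlap. Among these 3, the transporter genes *Oatp58Db* and *Oatp58Dc* did not overlap in FPKM either. The study had already reported Oatp genes as upregulated in these same libraries, so these 2 markers are not separate support for a direction. *Oatp58Db* had 9.84, 4.37 and 3.54 CPM under the label and 0.639, 0.0679 and 0.609 CPM in controls (log2 fold change 3.70, SE 0.76, adjusted p = 0.276 with edgeR and 4.77e-05 with DESeq2). *Oatp58Dc* had 25.7, 11.9 and 6.67 CPM under the label and 3.32, 2.04 and 3.65 CPM in controls (log2 fold change 2.29, SE 0.54, adjusted p = 0.404 with edgeR and 0.00442 with DESeq2). The other was *Irk3*, a potassium channel gene (log2 fold change 1.64, SE 0.50, unadjusted p = 0.0142). *Uro*, which encodes urate oxidase and is a marker of the tubule's principal cells, overlapped, at 34.7, 18.0 and 10.8 FPKM under the label and 19.8, 3.60 and 9.94 FPKM in controls. The direction was not particular to tubule markers: of 16 ovary markers, 11 were above 0 and 5 below. Their median was 0.33, with 0 at an unadjusted p under 0.05. The part of tubule or ovary cells in the *Ect3* difference was not tested.

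The other beta-galactosidase gene, *Gal* (2L, 6003574 to 6006827, minus strand), had 6.84, 8.05 and 6.23 FPKM in the libraries labelled *svp* RNAi and 8.29, 18.1 and 8.59 FPKM in controls. On this scale the 3 libraries labelled *svp* RNAi were all below the controls. On the CPM scale, at 14.1, 21.1 and 14.1 CPM under the label and 14.01, 50.6 and 24.4 CPM in controls, the groups overlapped, and control replicate 2 lay far above the rest (log2 fold change -0.85, SE 0.47, unadjusted p = 0.117, and -0.22, SE 0.34 without that library). The order of the pair differed between the groups. The ratio of *Ect3* to *Gal* FPKM was 1.84, 1.19 and 1.39 under the *svp* RNAi label, with *Ect3* above *Gal* in every library, against 0.369, 0.103 and 0.163 in controls, with *Gal* above *Ect3* in every library. The sum of both was 19.4, 17.7 and 14.9 FPKM under the label and 11.4, 19.9 and 9.99 FPKM in controls, and these overlapped. On the opposite strand, 165 bp of the exons of *Gal* overlap the protein-coding gene *Tsp26A*, which had 48 to 101 counts per library, and 1266 bp overlap a noncoding RNA gene, *CR43866*, which had at most 2.

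The remaining glycosidase genes encode beta-N-acetylhexosaminidases. *Hexo2*, the most abundant, had 110.0, 281 and 147 CPM in the libraries labelled *svp* RNAi and 116, 377 and 285 CPM in controls. It varied more within each group than between the groups (log2 fold change -0.53, SE 0.51). Its paralog *Hexo1* had 36.3, 62.3 and 53.8 CPM under the label and 29.7, 57.9 and 59.3 CPM in controls. *fdl*, whose product trims N-glycans outside the lysosome, had 32.5, 33.7 and 37.8 CPM under the label and 38.1, 27.2 and 36.5 CPM in controls. *Hexo1* and *fdl* had log2 fold changes of 0.05 and 0.03, so that within this group of 5 genes the values ran from -0.85 to 2.30.

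**Figure D3:**
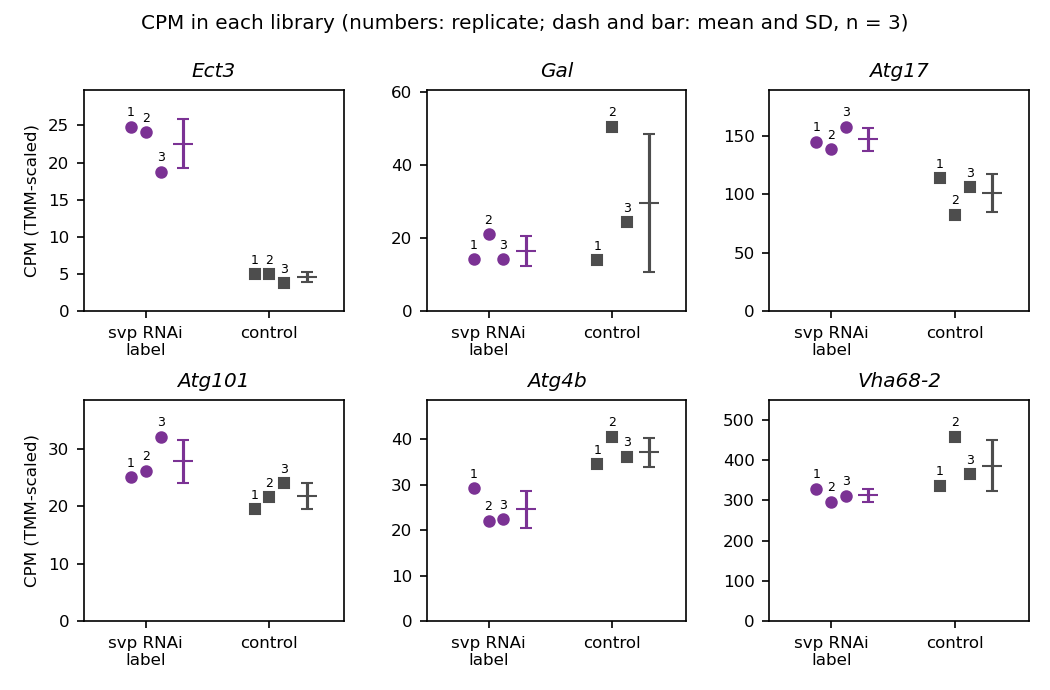
CPM of 6 members in each library labelled *svp* RNAi (purple circles) and each control library (grey squares), numbered by replicate, with the mean and SD (n = 3) beside them. *Ect3*, *Atg17*, *Atg101*, *Atg4b* and *Vha68-2* do not overlap between the groups, while in *Gal* control replicate 2 lies apart at 50.6 CPM.

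The 4 genes of the initiation kinase complex all had log2 fold changes above 0, against 40.9% of all genes, with a median of 0.28. *Atg17*, the FIP200-like scaffold of the complex, had 145, 138 and 158 CPM in the libraries labelled *svp* RNAi, against 114, 82.5 and 106 CPM in controls. *Atg101*, which binds and stabilizes *Atg13*, had 25.0, 26.2 and 32.1 CPM under the label and 19.5, 21.6 and 24.0 CPM in controls. The CPM of the groups did not overlap in either gene, with a narrow gap for *Atg101*. In FPKM both overlapped, at 26.1, 19.6 and 25.9 under the label and 25.1, 11.0 and 13.9 in controls for *Atg17*, and at 15.3, 12.6 and 17.9 under the label and 14.6, 9.76 and 10.7 in controls for *Atg101*. The log2 fold change was 0.54 for *Atg17* (SE 0.20, unadjusted p = 0.0276, adjusted p = 0.811) and 0.36 for *Atg101* (SE 0.20, unadjusted p = 0.119), so that neither passed the threshold. *Atg1*, the kinase, had 106, 108 and 121 CPM under the label and 99.9, 81.7 and 111 CPM in controls, and its groups overlapped (log2 fold change 0.19, SE 0.19). For *Atg13* the log2 fold change was 0.10 (SE 0.18). The ratio of *Atg17* to *Atg1* FPKM, which does not depend on library scaling, was 0.819, 0.764 and 0.783 under the label and 0.683, 0.605 and 0.571 in controls. The 4 log2 fold changes were above 0 under each normalization and on the FPKM scale, and 3 of 4 without control replicate 2.

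In the lipid kinase complex and the proteins that bind its product, 2 of 4 members were above 0 and 2 below. *Atg18a*, the more abundant of a pair of phosphoinositide-binding proteins, had 67.9, 80.4 and 73.6 CPM in the libraries labelled *svp* RNAi and 52.7, 74.3 and 73.0 CPM in controls (log2 fold change 0.15, SE 0.21). *Atg18b* had 27.7, 35.2 and 28.4 CPM under the label and 19.2, 37.8 and 39.8 CPM in controls (log2 fold change -0.09, SE 0.31). *Atg14*, the subunit that directs the kinase to autophagosomes, had 23.0, 25.3 and 22.7 CPM under the label and 24.4, 29.2 and 34.3 CPM in controls. Its difference was the largest in this complex, yet the groups overlapped (log2 fold change -0.31, SE 0.20, unadjusted p = 0.177). *Atg6*, the Beclin ortholog, had a log2 fold change of 0.12 (SE 0.22). The kinase itself, listed as *Pi3K59F*, was measured outside the members, with a mean of 7.25 FPKM and a log2 fold change of 0.23 (SE 0.23).

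*Atg2*, a lipid transfer protein, had 136, 155 and 154 CPM in the libraries labelled *svp* RNAi and 86.4, 133 and 155 CPM in controls. Control replicate 1 was the low one, and the groups overlapped (log2 fold change 0.25, SE 0.25), although in FPKM, at 24.6, 22.1 and 25.4 under the label and 19.1, 17.7 and 20.4 in controls, they did not. *Atg9*, the membrane protein that *Atg2* works with, had a log2 fold change of -0.05 (SE 0.25).

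In the conjugation systems, 8 of the 9 members tested had log2 fold changes below 0, against 5482 of all 9277 genes. The median was -0.08, against -0.06 over all genes. Without control replicate 1, 2 or 3, 6 of the 9 were below 0. The member that stood out was *Atg4b*, 1 of a pair of proteases that process *Atg8a*. It had 29.2, 22.1 and 22.4 CPM in the libraries labelled *svp* RNAi, against 34.5, 40.6 and 36.2 CPM in controls. All 3 libraries labelled *svp* RNAi were below all controls (log2 fold change -0.59, SE 0.20, unadjusted p = 0.0223, adjusted p = 0.795 with edgeR and 0.462 with DESeq2), and the difference did not pass the threshold. In FPKM, at 12.4, 7.39 and 8.68 under the label and 17.9, 12.7 and 11.2 in controls, the groups overlapped. Over 207 bp its exons overlap *CG5038* on the opposite strand. Its paralog *Atg4a* had 64.9, 84.1 and 71.0 CPM under the label and 58.6, 80.0 and 92.9 CPM in controls (log2 fold change -0.07, SE 0.23), and 2098 bp of its exons overlap *CG4629* on the opposite strand. Exons of *Atg10* (707 bp, *Dgk*) and *fdl* (536 bp, *Dh44-R2*) overlap opposite-strand genes likewise. Whether reads were counted by strand is not given in the sources used here, so reads of these overlapping genes may not be separated.

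*Atg8a* had 431, 620 and 518 CPM in the libraries labelled *svp* RNAi and 275, 644 and 624 CPM in controls. It was lowest in control replicate 1 and otherwise similar in both groups (log2 fold change 0.02, SE 0.36). Its partners were the activating enzyme *Atg7* (log2 fold change -0.11), the conjugating enzymes *Atg3* (-0.20) and *Atg10* (-0.25), and the *Atg12*, *Atg5* and *Atg16* complex (-0.08, -0.05 and -0.04), none with an unadjusted p under 0.05. *Atg10* was measured least precisely, with an SE of 0.61.

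*ref(2)P*, the p62-like receptor that carries ubiquitinated cargo into autophagosomes, had 408, 513 and 441 CPM in the libraries labelled *svp* RNAi and 309, 658 and 496 CPM in controls. The controls spread widely on either side of the libraries labelled *svp* RNAi (log2 fold change -0.10, SE 0.31). In FPKM, the values under the label lay close together at 197, 195 and 193, against 182, 234 and 174 in controls. *Mitf*, the transcription factor that switches on lysosome genes, had a log2 fold change of 0.07 (SE 0.34), with 16.1 to 33.6 FPKM under the label and 12.6 to 46.6 FPKM in controls.

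*Rab7*, the small GTPase of late endosomes and lysosomes, had 174.5, 260.2 and 197 CPM in the libraries labelled *svp* RNAi and 126, 256 and 220.2 CPM in controls. Its groups overlapped (log2 fold change 0.07, SE 0.31). *car*, a subunit of the tethering complex that *Rab7* recruits, was among the steadiest members, at 24.1, 26.6 and 25.7 CPM under the label and 25.8, 27.2 and 29.8 CPM in controls (log2 fold change -0.12, SE 0.18). *dor*, another subunit of that complex, had a log2 fold change of -0.11 (SE 0.23).

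For the proton pump, 4 of 5 members were below 0, against 5482 of all 9277 genes, with a median of -0.14. Without control replicate 2, only 2 of the 5 were below 0 and the median was 0.09. *Vha68-2*, the catalytic subunit, had 329, 296 and 311 CPM in the libraries labelled *svp* RNAi and 336, 459 and 365 CPM in controls. *Vha55*, its partner in the catalytic ring, had 334, 302 and 311 CPM under the label and 340.0, 427 and 342 CPM in controls. In both genes *svp* replicate 1 lay just under control replicate 1, and only control replicate 2 was far above the rest. The log2 fold changes were -0.31 (SE 0.20, unadjusted p = 0.175) and -0.23 (SE 0.19, unadjusted p = 0.279), and neither passed the threshold. *Vha16-1*, the proteolipid of the membrane ring, had 864, 907 and 823 CPM under the label and 711, 1242 and 898 CPM in controls, which overlapped (log2 fold change -0.14, SE 0.27). *VhaSFD* and *Vha100-1* had log2 fold changes of -0.11 and 0.06.

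The 15 other V-ATPase subunit genes that could be tested, of 28 in the list, were mostly below 0 as well. Of these, 14 had log2 fold changes below 0, with a median of -0.26, 0 had an unadjusted p under 0.05, and 5 did not overlap between the groups (*Vha13*, *Vha14-1*, *Vha26*, *Vha36-1* and *Vha100-5*, all lower), against 4.82% of all genes lower without overlap. With the members, 18 of 20 were below 0, against 5482 of all 9277 genes, and the median was -0.23, against -0.06 over all genes. The most abundant, *Vha13*, had 236, 224 and 239 CPM in the libraries labelled *svp* RNAi and 245, 339 and 280.1 CPM in controls (log2 fold change -0.31, SE 0.20). The controls bore on this unequally. Without control replicate 1 all 20 were below 0, with a median of -0.32 and 5 at an unadjusted p under 0.05, while over all genes in that fit the median was 0.05 and 1306 of 9509 had such a p. Without control replicate 2 there were 16 of 20 below 0, with a median of -0.10, against -0.06 over all genes in that fit. The count of subunits whose groups did not overlap was 7 of 20 with TMM, 8 with DESeq2's size factors, 4 with upper quartile scaling and 0 in FPKM, all lower, against 4.82%, 5.16%, 3.73% and 4.37% of all genes lower on these scales. Control replicate 2, the highest for most subunits named, also had the most muscle marker RNA, and the part of that in the pump genes was not tested.

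**Figure D4:**
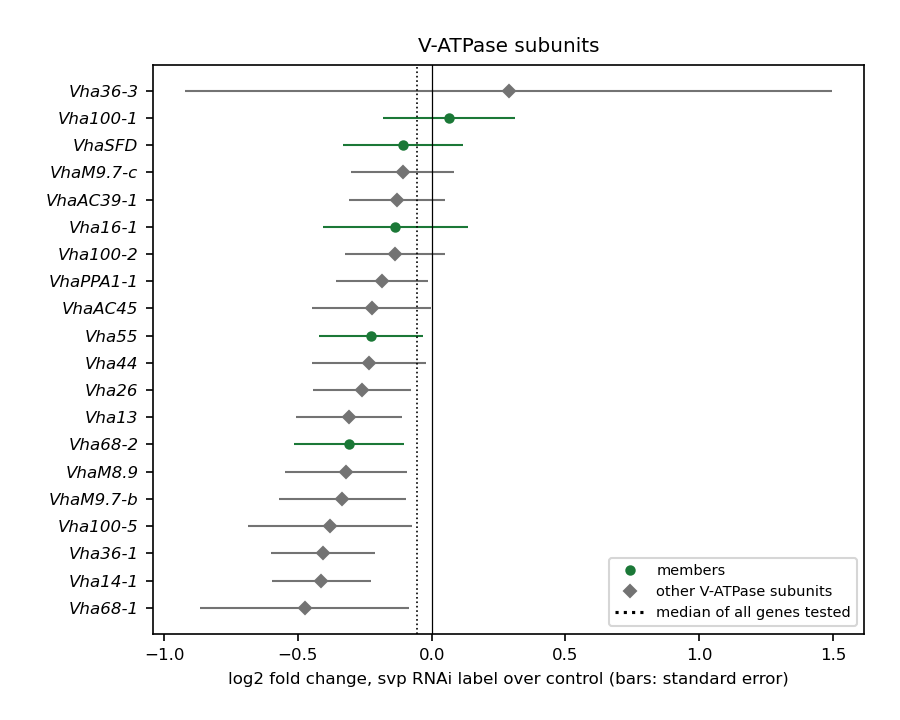
Log2 fold change of the *svp* RNAi label over control, with the standard error, for the 5 V-ATPase members (green circles) and the 15 other subunit genes tested (grey diamonds). The dotted line marks the median of all genes tested at -0.06, and 18 of the 20 subunit genes lie below 0.

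The cathepsin genes varied between libraries about as much as all genes did, with a median highest-to-lowest CPM of 2.28 times against 2.27 times. Their differences between groups were small. *Cp1*, a cathepsin L, had 1256, 1802 and 1384 CPM in the libraries labelled *svp* RNAi and 876, 1876 and 1789 CPM in controls (log2 fold change -0.03, SE 0.36). *cathD*, an aspartic protease, had 451, 663 and 481 CPM under the label and 364, 882 and 809 CPM in controls (log2 fold change -0.37, SE 0.37). On this scale both were lowest in control replicate 1, and the highest library was 2.14 and 2.42 times the lowest. In FPKM it was 1.33 and 1.49 times the lowest. Relative to each other these 2 genes were steadier within each group: the ratio of *cathD* to *Cp1* FPKM was 0.385, 0.396 and 0.374 under the label, against 0.447, 0.505 and 0.486 in controls. Of 12 such ratios between members, 3 did not overlap between the groups, those of *Ect3* to *Gal*, *Atg17* to *Atg1* and *cathD* to *Cp1*. The 12 pairs were picked, and *Ect3* and *Atg17* already did not overlap as single genes in CPM. No share over all gene pairs was computed, and among single genes 9.32% did not overlap in CPM. *CtsB1*, a cathepsin B, had a log2 fold change of 0.06 (SE 0.39), and *26-29-p* of -0.23 (SE 0.23). *26-29-p* ran against the others, with 285, 216 and 273 FPKM under the label and 478, 189 and 260 FPKM in controls, highest where *Cp1* and *CtsB1* were lowest. Without control replicate 1, the log2 fold change of *cathD* was -0.64 (SE 0.22, unadjusted p = 0.0262, adjusted p = 0.309) and that of *Gal* was -1.17 (SE 0.36, unadjusted p = 0.0159, adjusted p = 0.259). In that fit 1306 of 9509 genes had an unadjusted p under 0.05.

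All 3 genes of the lysosomal membrane and of sterol transport were below 0, against 5482 of all 9277 genes. With the replicate number as a block, and in limma on log2 FPKM, 2 of the 3 were. *Lamp1* had 348, 437 and 363 CPM in the libraries labelled *svp* RNAi and 296, 602 and 479 CPM in controls (log2 fold change -0.26, SE 0.30). In FPKM it had 249.1, 246 and 236 under the label and 259, 318 and 249.5 in controls, which left a very narrow gap between the groups. *Npc2a* and *Npc1a*, which move cholesterol out of the lysosome, had log2 fold changes of -0.25 (SE 0.36) and -0.05 (SE 0.33).

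On the CPM scale, many members had their lowest or highest value in the same control library, as shown in the map of the members over the libraries. Control replicate 1 gave the lowest CPM of 21 of 41 members (51.2%), against 34.9% of all genes, and the highest of 7 members (17.1%), against 35.1% of all genes. These 7 were *Mitf*, *26-29-p*, *Atg5*, *Atg7*, *Atg16*, *fdl* and *dor*. Control replicate 2 gave the highest CPM of 16 members (39%), against 24.9% of all genes. On the FPKM scale, which takes no account of library composition, control replicate 1 was lowest for 6 members (14.6%), against 16.2% of all genes, and control replicate 2 for 14 (34.1%), against 36.2%. The TMM factors were 1.13, 0.893 and 1.03 for the libraries labelled *svp* RNAi and 1.39, 0.837 and 0.824 for the controls. Over the 6 libraries the highest CPM of a member was between 1.23 times (*Atg5*) and 6.56 times (*Ect3*) the lowest, with a median of 1.75 times, against 2.27 times over all genes. Control replicate 1 was also the library with the most midgut marker RNA, and it gave the lowest CPM of 8 of 10 fat body markers and of all 4 oenocyte markers. The summed FPKM of the oenocyte markers was 4448, 5248 and 6043 in the libraries labelled *svp* RNAi and 2642, 7278 and 5081 in controls. The part of these cells in the members' patterns was not tested.

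**Figure D5:**
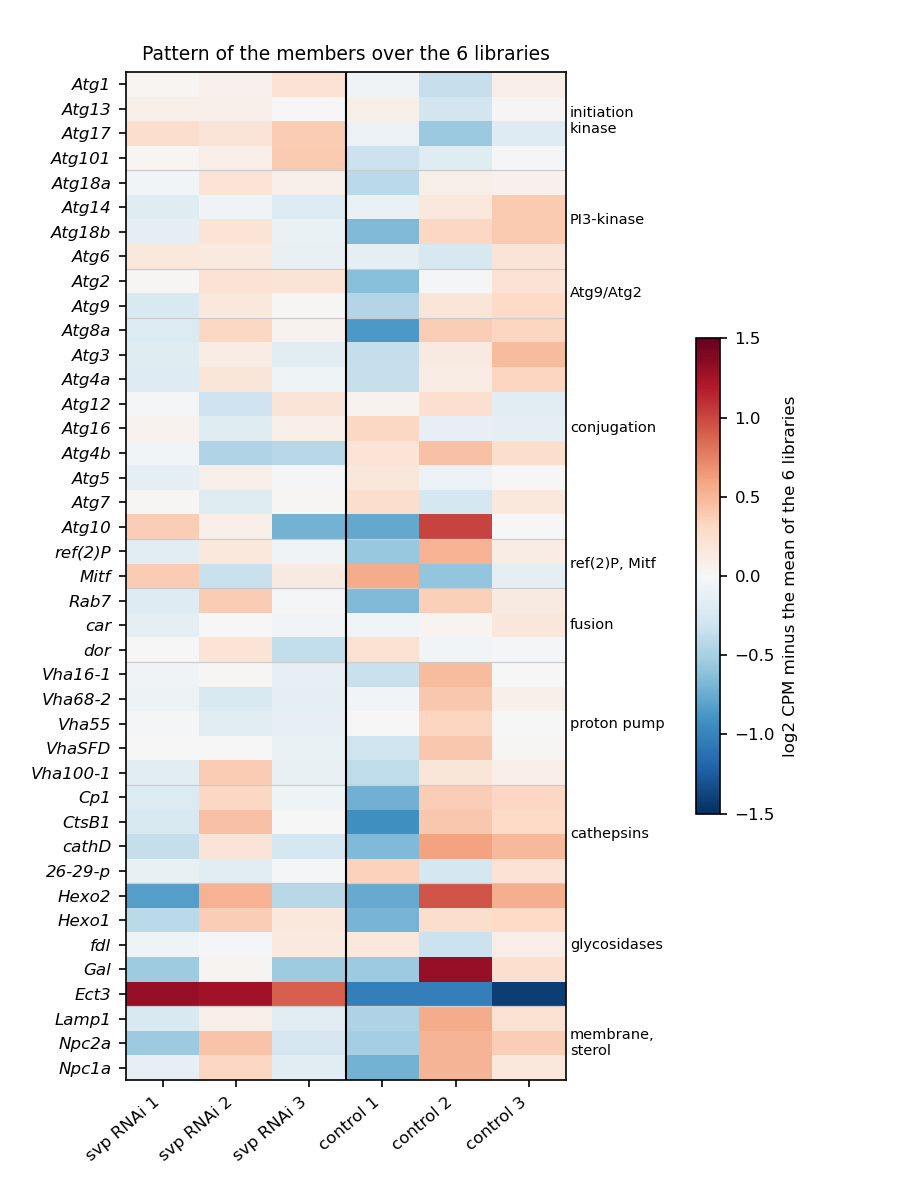
Log2 CPM of the 41 members tested in each library, minus the member's mean over the 6 libraries (red above, blue below), with the libraries labelled *svp* RNAi left of the line and the controls right of it. Control replicate 1 is lowest for 21 members, and *Ect3* is the member that divides most sharply along the line.

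Among the genes of the wider pathway, in the V-ATPase list and 3 others, 0 were called by edgeR or DESeq2, against 0.097% and 1.45% of all genes. With 15 to 30 genes tested in each list, 0 is near these shares. Of 20 other autophagy genes tested, 9 were above 0 and 11 below, with a median log2 fold change of -0.04. An unadjusted p under 0.05 was found for 1 of the 20 (5%), against 4.99% of all genes. *Ykt6*, which encodes a SNARE used in autophagosome fusion, had 38.0, 38.3 and 39.4 CPM in the libraries labelled *svp* RNAi and 53.5, 47.5 and 58.0 CPM in controls, without overlap (log2 fold change -0.46, SE 0.17, unadjusted p = 0.035, adjusted p = 0.912). The most abundant of them, *Vamp7*, had a log2 fold change of -0.28 (SE 0.26). Of 29 genes of membrane traffic to the lysosome, 8 were above 0 and 21 below, with a median of -0.10 and 1 at such a p (3.45%). *Lerp*, the receptor that sorts hydrolases to the lysosome, had 22.7, 15.0 and 13.6 CPM under the label and 33.3, 35.3 and 27.1 CPM in controls, also without overlap. Its log2 fold change of -0.90 (SE 0.26, unadjusted p = 0.0114, adjusted p = 0.613) was the most negative among the 4 lists of other pathway genes. *Rab5*, the most abundant of that list, had a log2 fold change of -0.06 (SE 0.24). Of 30 other lysosomal hydrolase and membrane protein genes tested, 10 were above 0 and 20 below, with a median of -0.06 and 0 at an unadjusted p under 0.05. The most abundant were *Npc2g* at 978 FPKM, of the Niemann-Pick C2 family, and *Sap-r* at 469.6 FPKM, the prosaposin gene, with log2 fold changes of 0.23 (SE 0.48) and -0.12 (SE 0.36).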

How the data were processed

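Poly(A)-selected RNA of 6 libraries was sequenced as read pairs. The authors aligned reads with TopHat to the Ensembl reference, counted fragments per gene with HTSeq, and deposited the raw counts. Versions and the strand setting are not given in the sources used here. The deposited FPKM values equal the counts divided by library total and by 1 fixed length per gene (the listed length for 49.1% of genes, within a tolerance of 0.001). All 42 members were found by identifier in the BDGP6 annotation, 41 with the same coordinates. No row lacked a gene.

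Counts were compared with edgeR 4.0.16 (R 4.3.3, TMM, filterByExpr, quasi-likelihood test, Benjamini-Hochberg over all genes tested, threshold 0.05). The test was also run on simulated counts whose means and spread came from these libraries. Alternatives were DESeq2 1.42.0, other scalings and filters, the replicate number as a block, limma 3.58.1 on log2 FPKM, and each library left out. The p-values measure the spread between pooled samples. Members given library by library were those called, with an unadjusted p under 0.05 or without overlap between groups, the most abundant and most changed of each role, and paralogs. The members, lists and tests were chosen with earlier results of these data known. Of 218 list symbols, 203 matched.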

Additional observations from a re-analysis of the deposited data

How the results depend on the processing

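Of 615 log2 fold changes of the 41 members under 15 alternatives, 607 stayed on the same side of the threshold, 8 (all of *Ect3*) no longer passed it, and *Ect3* stayed higher in all. Among members that were not called, 23 changed sign under at least 1 alternative. Against 9 genes called over all genes tested, there were 14 with DESeq2's size factors, 153 with DESeq2, 25 without a filter, 27 with the replicate number as a block, 55 and 53 with limma at pseudocounts of 1 and 0.1, and 3 to 61 with 1 library left out, the 61 without control replicate 1. Against 1 member called (*Ect3*), limma called 0 at either pseudocount, and 0 to 1 were called with 1 library left out. Against 3 members with an unadjusted p under 0.05, limma gave 1 at either pseudocount, the block 4, and the fits with 1 library left out 1 to 5. Over all 9277 genes there were 463 in the main fit, 661 and 637 with limma and 672 with the block. The 5 members came without control replicate 1, where 1306 of 9509 genes had such a p. An alternative chosen after seeing the data, without control replicate 1 and *svp* replicate 3, called 23 genes and 0 members. The members' median log2 fold change was -0.20 without control replicate 1, against 0.05 over all genes in that fit. Without control replicate 2 it was 0.01, against -0.06 over all genes. How the members lay relative to all genes thus depended on which control library was kept. Whether replicate numbers pair the samples was not settled. Deviations of same-numbered libraries from their group mean correlated at 0.54, 0.59 and -0.32. The *svp* replicates 1 and 2 correlated best with the control of the same number, and *svp* replicate 3 with control replicate 1 (0.45). Deviations from a mean of 3 libraries depend on each other, so these correlations cannot decide it. Depth limits *Atg10* and *Atg8b*. With 3 libraries in each group, differences well above 1 SE did not pass the threshold, as for *Atg17* and *Atg4b*.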
